A study of Homo sapiens with 12 samples.

Results

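HIF targets outside glycolysis were followed in 2 cancer cell lines treated with inhibitors of the coactivators CBP and p300, through 10 of the 34687 gene names on the array. The genes were taken by name, with earlier results of these data known: HIF1A, which encodes the oxygen-regulated subunit of the transcription factor HIF-1, and 9 genes known to be induced by low oxygen, ANKRD37, CA9, BNIP3, BNIP3L, EGLN3, NDRG1, VEGFA, ADM and PDK1. HCT116 is an established human colon cancer line and PANC1 an established human pancreatic adenocarcinoma line. Cells of each line received 0.05% DMSO (the solvent control) or else ICG-001 or C646, each at 10 uM, and RNA was collected after 12 or 96 h and hybridized to Illumina HumanHT-12 v4 expression arrays. ICG-001 keeps CBP (CREBBP) from contacting β-catenin, and C646 inhibits the enzymatic, histone-acetylating function of CBP as well as p300 (EP300). Each of the 12 combinations of line, treatment and time was 1 column of signals, averaged by the authors over 2 arrays in 11 columns and over 3 arrays in the PANC1 ICG-001 12 h column. Single arrays were not analysed here, so the differences below have no replicate check, no p-value is given, and the small number of arrays limits their precision.

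HIF-1 is a pair of HIF1A and ARNT that binds the short sequence ACGTG or GCGTG near its target genes. HIF1A is controlled mainly as a protein: in the presence of oxygen, prolyl hydroxylases of the EGLN family mark it, and the VHL ubiquitin ligase then has it destroyed. When HIF1A is stable, its activation domain recruits CBP and p300, a contact that the hydroxylase HIF1AN blocks and that CITED2 competes for. Its targets move cells away from mitochondrial respiration, buffer pH, remove mitochondria and recruit blood vessels, and the transcript level of HIF1A itself need not follow its activity.

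Of the 10 genes, ANKRD37 had the largest ratios to DMSO with either drug in HCT116. BNIP3 and ADM passed 1.5-fold in several comparisons, and the CA9 signal crossed the detection limit. Sequences are shown for these 4, out of the 7 genes for which a sequence was used. Each is the 250 bases before the transcription start, 5′ to 3′ on the strand of the gene, from RefSeq (GRCh38.p14): ANKRD37 at chr4:185396591-185396840 (+ strand), CA9 at chr9:35673678-35673927 (+ strand), BNIP3 at chr10:131981924-131982173 (- strand) and ADM at chr11:10304823-10305072 (+ strand). Capitals mark every ACGTG or GCGTG on either strand, so that CACGT and CACGC are the same letters read from the other strand, and overlapping matches were merged into 1 stretch.
ANKRD37: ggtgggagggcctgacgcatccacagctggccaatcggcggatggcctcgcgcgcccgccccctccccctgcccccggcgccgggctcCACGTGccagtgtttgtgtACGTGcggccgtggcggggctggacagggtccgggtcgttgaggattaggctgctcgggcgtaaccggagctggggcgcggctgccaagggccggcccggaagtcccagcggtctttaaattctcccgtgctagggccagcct
BNIP3: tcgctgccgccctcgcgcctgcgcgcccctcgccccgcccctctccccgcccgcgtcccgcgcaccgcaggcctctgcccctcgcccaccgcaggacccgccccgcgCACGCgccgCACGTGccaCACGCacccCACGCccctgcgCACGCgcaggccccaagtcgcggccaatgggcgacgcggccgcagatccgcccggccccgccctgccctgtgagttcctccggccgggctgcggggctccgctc
ADM: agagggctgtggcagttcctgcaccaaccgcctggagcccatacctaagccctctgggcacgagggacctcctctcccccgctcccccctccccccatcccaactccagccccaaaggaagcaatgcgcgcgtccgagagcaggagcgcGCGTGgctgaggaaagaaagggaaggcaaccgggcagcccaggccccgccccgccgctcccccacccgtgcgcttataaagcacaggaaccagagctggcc
CA9: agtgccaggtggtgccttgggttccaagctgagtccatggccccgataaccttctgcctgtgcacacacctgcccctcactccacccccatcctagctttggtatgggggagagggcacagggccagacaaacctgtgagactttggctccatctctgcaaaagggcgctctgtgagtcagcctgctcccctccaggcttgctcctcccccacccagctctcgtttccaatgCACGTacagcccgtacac

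The BNIP3 window held 5 such stretches, which 0.629% of all 35116 windows of this length equalled or exceeded. ANKRD37 held 2 stretches, a number reached by 16.2% of all windows. CA9 held 1 stretch, 14 bases before the start, and ADM held 1, 97 bases before the start. At least 1 stretch stood in 43.2% of all windows, so that a single match is common. RefSeq windows were used for 7 of the 10 genes. These 7 genes had 9 windows, of which 6 held a stretch: besides the 4 printed, 1 of the PDK1 windows had 2 stretches and 1 of the HIF1A windows had 1, while the EGLN3 window had 0. No window was used for BNIP3L, NDRG1 and VEGFA, although BNIP3L and NDRG1 also passed 1.5-fold in several comparisons. EGLN3 and PDK1, whose signals crossed the detection limit like that of CA9, were not printed. Each of the 4 printed windows held a stretch, so they are not a neutral choice among the genes. A match is a description of letters only.

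A signal was read against a detection limit, 143.8 to 144.5 for HCT116 and 135.6 to 138.3 for PANC1, set just above the bulk of dim genes, and 44.3 to 47.0% of the gene names lay above it. Normalization appears to have been done for each line on its own, since sorted log2 signals differed by a mean of 0.0037 to 0.0093 between columns of 1 line and 0.063 to 0.066 between columns of different lines. The epithelial markers EPCAM, CDH1, KRT8 and KRT18 were above the limit in all 6 columns of each line. Of 6 colon markers, CDX2 was above the limit in all 6 HCT116 columns and also in all 6 PANC1 columns. Of 5 pancreatic duct markers 4 were above it throughout in each line, so these counts did not separate the lines. None of the 4 blood markers or 3 endothelial markers was above the limit in all columns of either line. Of 4 mesenchymal markers VIM was above it throughout in both lines and CDH2 in PANC1, and of 4 fibroblast markers COL1A1 was above it throughout in both lines. By summed signal, a different measure, the 4 mesenchymal markers had 17192 to 20596 in PANC1 and 632 to 706 in HCT116. The colon sums (993 to 1097 in HCT116, 842 to 882 in PANC1) did not overlap either. Nor did the epithelial sums (12780 to 15580 in HCT116, 3875 to 8995 in PANC1). The duct sums did overlap (9257 to 13520 in HCT116, 7605 to 13618 in PANC1). The gap between the lines was widest for the mesenchymal list. Background light was left in the signals, so that ratios of dim genes understate their differences.

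Among the regulators, HIF1A transcript was measured in every column. In HCT116 its signal was 586 at 12 h and 568 at 96 h under DMSO, 619 and 464 under ICG-001, and 457 and 399 under C646. In PANC1 it was 514 and 451 under DMSO, 457 and 321 under ICG-001, and 416 and 384 under C646. HIF1A was thus lower at 96 h than at 12 h under every treatment in both lines, though nearly level under DMSO in HCT116. Its C646 columns lay below its DMSO columns in both lines. EGLN3, a prolyl hydroxylase that HIF itself induces, was at or under the limit in all 6 PANC1 columns and close to the limit in HCT116. Its HCT116 signals were 149 and 152 under DMSO, 126 and 136 under ICG-001, both under the limit, and 144 (below the limit) and 163 under C646.

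BNIP3 and BNIP3L encode outer mitochondrial membrane receptors that mark mitochondria for removal. The HCT116 signal of BNIP3 was 2606 at 12 h and 4677 at 96 h under DMSO, 1650 and 2003 under ICG-001, and 3031 and 4091 under C646. In PANC1 the BNIP3 signal was 2892 and 3883 under DMSO, 2813 and 3501 under ICG-001, and 3054 and 3209 under C646. Both ICG-001 columns of HCT116 were therefore below every other HCT116 column of BNIP3, whereas in PANC1 the treatments overlapped. BNIP3L in HCT116 was 851 and 1565 under DMSO, 421 and 928 under ICG-001, and 604 and 1190 under C646. In PANC1 BNIP3L stayed between 367 and 446 in all 6 columns. At each time point, DMSO was the highest and ICG-001 the lowest column of BNIP3L in HCT116. PDK1, the kinase that shuts pyruvate out of mitochondrial oxidation, was dim everywhere, with HCT116 signals of 133 to 154 and PANC1 signals of 132 to 163, and the DMSO 12 h column was at or under the limit in both lines.

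CA9, a membrane carbonic anhydrase that buffers pH, was at or under the limit in all 6 PANC1 columns (117 to 129). In HCT116 the CA9 signal was 153 and 205 under DMSO, 133 and 122 under ICG-001, both under the limit, and 149 and 263 under C646. It was measurable in HCT116 under DMSO and C646 and not above the limit under ICG-001 at either time. Of the secreted factors, VEGFA, the main growth factor of blood vessels, was 155 and 164 under DMSO in HCT116, 245 and 312 under ICG-001, and 177 and 195 under C646. In PANC1 VEGFA was 129 (under the limit) and 175 under DMSO, 219 and 280 under ICG-001, and 171 and 191 under C646. The ICG-001 columns of VEGFA were the highest in both lines. ADM, which encodes the vasodilator peptide adrenomedullin, was 4126 and 6519 under DMSO in HCT116, 2721 and 5003 under ICG-001, and 4780 and 10288 under C646. In PANC1 ADM was 7525 and 8986 under DMSO, 10220 and 9684 under ICG-001, and 8828 and 8474 under C646, a narrow band beside that of HCT116.

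ANKRD37, a small ankyrin-repeat protein, was 996 and 2137 under DMSO in HCT116, 347 and 456 under ICG-001, and 507 and 4124 under C646. In PANC1 the ANKRD37 signal lay between 209 and 288 in all 6 columns. Its HCT116 range of 11.9-fold between the lowest and the highest column was the widest of the 10 genes, and in PANC1 it was 1.37-fold. NDRG1, a protein linked to differentiation and stress, was 2405 and 6621 under DMSO in HCT116, 3333 and 7220 under ICG-001, and 2241 and 11168 under C646. In PANC1 NDRG1 was 180 and 286 under DMSO, 217 and 281 under ICG-001, and 238 and 249 under C646. NDRG1 was higher at 96 h than at 12 h under every treatment in both lines, though nearly level under C646 in PANC1.

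**Figure D1:**
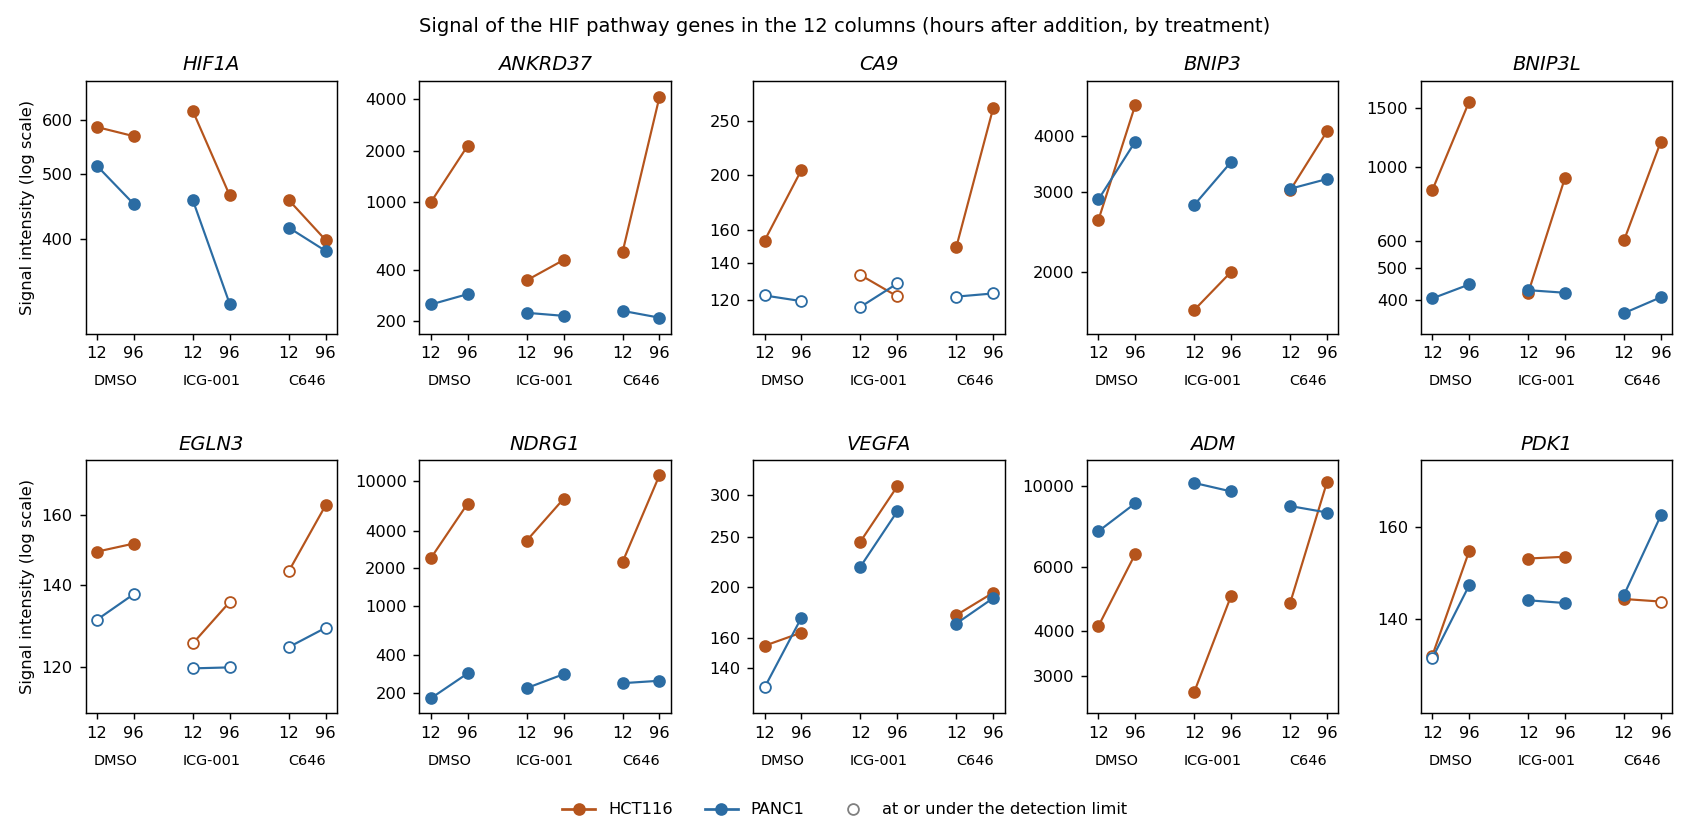
Signal intensity (log scale, 1 panel per gene with its own axis) of the 10 genes at 12 and 96 h under DMSO, ICG-001 and C646, with HCT116 in orange and PANC1 in blue. Each point is 1 column, the authors' mean of 2 or 3 arrays, so there are no error bars, and open points are at or under the detection limit. ANKRD37 in HCT116 runs from 347 to 4124 while its 6 PANC1 columns lie between 209 and 288.

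The DMSO columns serve as the reference for time in culture, since no drug was present. The arrays read RNA of whole cultures, so fewer expressing cells and less transcript per cell cannot be told apart. In HCT116, 5 of the 9 targets were at least 1.5-fold higher at 96 h than at 12 h. NDRG1 was 2.75-fold higher, ANKRD37 2.15-fold, BNIP3L 1.84-fold, BNIP3 1.79-fold and ADM 1.58-fold. These ratios ranked 3 (NDRG1), 16 (ANKRD37), 45 (BNIP3L), 54 (BNIP3) and 163 (ADM) from the top of 16435 genes that exceeded the limit in either column. CA9 was 1.34-fold higher and PDK1 at least 1.07-fold higher, while HIF1A (log2 ratio -0.04), EGLN3 (0.02) and VEGFA (0.08) were nearly level. So 5 of 10 genes were higher by 1.5-fold or more and 0 were lower, beside 1.58% of all genes tested that were higher and 1.58% that were lower. The median log2 ratio of the 10 genes was 0.54, and that of all genes was 0.01. A limit set further above background (5 SD) left 7 genes, without EGLN3, VEGFA and PDK1, and their median was 0.84. Their ratios were unchanged, so the higher median came from the smaller set. After normexp background correction the median of the 10 genes was 0.78.

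In PANC1 the same comparison gave smaller differences. NDRG1 was 1.59-fold higher at 96 h, and VEGFA, which was under the limit at 12 h, was at least 1.27-fold higher (1.36-fold as measured). BNIP3 was 1.34-fold higher, ADM 1.19-fold, ANKRD37 1.15-fold, PDK1 at least 1.07-fold and BNIP3L 1.10-fold, and HIF1A was lower with a log2 ratio of -0.19. Among the 8 genes above the limit, 1 passed 1.5-fold upward and 0 downward, against 0.986% and 0.335% of all genes. Their median log2 ratio was 0.23, and 0.35 after normexp correction. Per the study's methods, cells for 12 h were denser when treatment began, cells for 96 h began sparser and were passaged before they filled the dish, and medium and drug were renewed daily. Time, passage and density cannot be told apart in this comparison. As a gauge of noise in background readings, the log2 ratios of genes under the limit in both columns had an SD of 0.06 to 0.07 in the pairs of columns compared. It does not measure how brighter genes vary between cultures or arrays.

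With ICG-001, HCT116 cells had less ANKRD37, BNIP3 and BNIP3L transcript and more VEGFA transcript than with DMSO, at both times. ANKRD37 was 2.87-fold lower at 12 h, the 7th lowest ratio of 16786 genes, and 4.68-fold lower at 96 h, the 4th lowest of 16887. BNIP3 was 1.58-fold lower at 12 h and 2.34-fold lower at 96 h, and BNIP3L was 2.02-fold and 1.69-fold lower. CA9 was at least 1.06-fold lower at 12 h and at least 1.42-fold lower at 96 h (1.68-fold as measured), since both ICG-001 columns were under the limit. ADM was 1.52-fold lower at 12 h and 1.30-fold lower at 96 h. In the other direction, VEGFA was 1.58-fold higher at 12 h and 1.91-fold higher at 96 h. NDRG1 was 1.39-fold and 1.09-fold higher, HIF1A had log2 ratios of 0.08 and -0.29, and PDK1 had 0.20 and -0.01.

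By count, 4 of 10 genes were lower by at least 1.5-fold with ICG-001 at 12 h in HCT116 and 1 was higher, beside 4.22% and 4.89% of all genes. At 96 h the counts were again 4 lower, with the measured ratio of CA9 counted, and 1 higher, beside 5.18% and 5.2% of all genes. The median log2 ratio was -0.23 at 12 h and -0.34 at 96 h, and that of all genes 0.00 and 0.01. After normexp correction the 12 h median was -0.64 and 8 of 10 genes passed 1.5-fold, VEGFA (1.33) and PDK1 (0.63) of them upward. The share of all genes after that correction is not given here. With the 5 SD limit the medians were -0.60 over the 7 genes left at 12 h and -0.56 over the 8 left at 96 h. Both ICG-001 columns lay below both DMSO columns for 4 of 10 genes (ANKRD37, CA9, BNIP3 and EGLN3), which 23.9% of all genes did. They lay above both for VEGFA alone, which 25.2% of all genes did. This ordering of columns was common in the whole table.

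In PANC1, ICG-001 went with higher VEGFA, at least 1.59-fold at 12 h (1.70-fold as measured) and 1.60-fold at 96 h, and with smaller differences in the other genes. ADM was 1.36-fold higher at 12 h and 1.08-fold higher at 96 h. ANKRD37 had log2 ratios of -0.16 and -0.42, HIF1A -0.17 and -0.49, BNIP3 -0.04 and -0.15, BNIP3L 0.08 and -0.08, and NDRG1 0.27 and -0.02. VEGFA was the single gene of 8 past 1.5-fold upward at each time, beside 2.2% of all genes at 12 h and 3.89% at 96 h, and 0 of 8 passed it downward, beside 0.34% and 3.6%. The median log2 ratio was 0.10 at 12 h, which became 0.22 after normexp correction and 0.02 with no filter on dim genes, and -0.06 at 96 h. Both ICG-001 columns lay above both DMSO columns for VEGFA and ADM (23.8% of all genes) and below for ANKRD37 (23.1% of all genes).

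**Figure D2:**
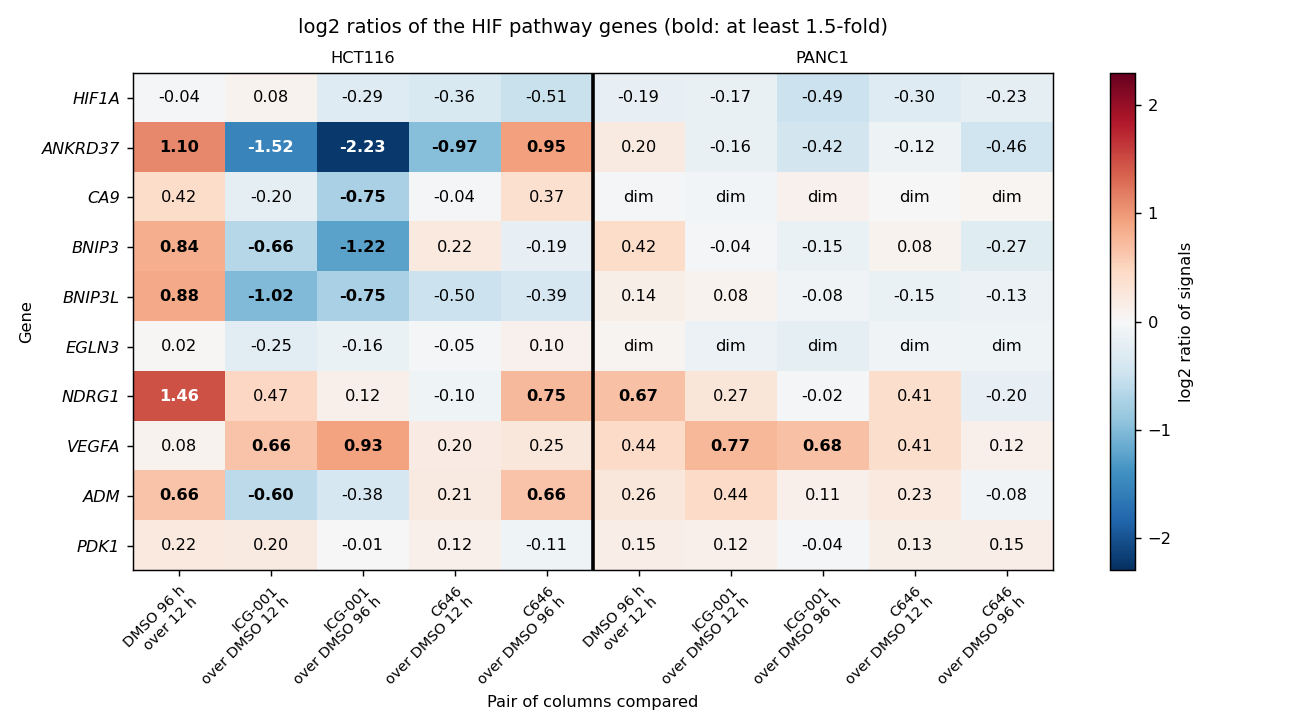
Log2 ratios of the 10 genes (rows) in 5 pairs of columns for each line, the DMSO 96 h over 12 h pair and each drug over DMSO at the same time. Red is higher and blue lower, values of at least 1.5-fold are bold, and "dim" marks genes at or under the limit in both columns; the ANKRD37 row in HCT116 runs from -2.23 to 1.10, and VEGFA is positive in every pair.

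C646 in HCT116 had opposite sides at the 2 times for ANKRD37, which was 1.96-fold lower at 12 h and 1.93-fold higher at 96 h. At 96 h NDRG1 was 1.69-fold higher, ADM 1.58-fold higher and CA9 1.29-fold higher than with DMSO, and at 12 h their log2 ratios were -0.10 (NDRG1), 0.21 (ADM) and -0.04 (CA9). BNIP3L was 1.41-fold and 1.31-fold lower and HIF1A 1.28-fold and 1.43-fold lower at 12 and 96 h. BNIP3 had log2 ratios of 0.22 and -0.19, and VEGFA 0.20 and 0.25. In all, 1 of 10 genes was lower by 1.5-fold or more at 12 h and 0 were higher, beside 1.55% and 2.63% of all genes, and at 96 h 3 were higher and 0 lower, beside 1.92% and 1.24%. The median log2 ratio was -0.05 at 12 h and 0.18 at 96 h. The latter was 0.31 over the 8 genes left by the 5 SD limit, and 0.40 after normexp correction. Both C646 columns lay below both DMSO columns for HIF1A (20.3% of all genes) and above them for VEGFA (19.8%).

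In PANC1 none of the 8 genes above the limit passed 1.5-fold with C646 in either direction. The share of all genes that did was 4.03% higher and 2.72% lower at 12 h, and 2.85% higher and 1.2% lower at 96 h. The ratios nearest to it were those of ANKRD37, 1.37-fold lower at 96 h, and NDRG1, 1.32-fold higher at 12 h. The VEGFA ratio at 12 h was of like size, 1.33-fold as measured and at least 1.24-fold. The median log2 ratio was 0.11 at 12 h and -0.16 at 96 h. Both C646 columns lay below both DMSO columns for HIF1A and ANKRD37, as in 29.7% of all genes, and above them for 0 of 8, as in 26.8%. Both drugs are compared with the same DMSO columns, so their ratios share that column's error.

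ICG-001 and C646 can be set against each other directly at the same dose and time. In HCT116 at 96 h ANKRD37 was 9.04-fold lower with ICG-001 than with C646, the lowest ratio of all 16976 genes tested. ADM was 2.06-fold lower, BNIP3 2.04-fold lower, NDRG1 1.55-fold lower and CA9 at least 1.83-fold lower (2.16-fold as measured), while VEGFA was 1.60-fold higher. At 12 h BNIP3 was 1.84-fold and ADM 1.76-fold lower with ICG-001, ANKRD37 was 1.46-fold and BNIP3L 1.44-fold lower, and NDRG1 was 1.49-fold higher, the other side from its 96 h ratio. VEGFA was 1.38-fold and HIF1A 1.35-fold higher with ICG-001 at 12 h. Hence 2 of 9 genes were lower and 0 higher at 12 h, beside 2.86% and 3.49% of all genes, and 5 of 10 were lower and 1 higher at 96 h, beside 3.3% and 3.26%. The median log2 ratios were -0.17 and -0.49, and -0.53 and -0.69 after normexp correction.

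In PANC1 0 of 8 genes passed 1.5-fold between the drugs. Of all genes, 1.59% were on the higher and 0.937% on the lower side for ICG-001 at 12 h, and 3.36% and 3.52% at 96 h. VEGFA came nearest, 1.29-fold higher with ICG-001 at 12 h and 1.47-fold higher at 96 h. The medians were 0.06 and 0.08, and the 12 h median turned to -0.02 when the dim genes CA9 and EGLN3 were kept in.

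The difference between 96 and 12 h was also taken within each drug. In HCT116 with C646, ANKRD37 was 8.14-fold and NDRG1 4.98-fold higher at 96 h, ranks 1 and 2 among the 16932 genes tested. ADM was 2.15-fold, BNIP3L 1.97-fold, CA9 1.76-fold and BNIP3 1.35-fold higher. With ICG-001, BNIP3L was 2.21-fold, NDRG1 2.17-fold and ADM 1.84-fold higher at 96 h, whereas ANKRD37 was 1.32-fold and BNIP3 1.21-fold higher, less than the 2.15-fold and 1.79-fold of the DMSO columns. BNIP3L, NDRG1 and ADM thus passed 1.5-fold under all 3 treatments, 3 of 10 genes, beside 0.423% of all genes. The time difference of ANKRD37 ran from 1.32-fold with ICG-001 through 2.15-fold with DMSO to 8.14-fold with C646, and had the widest spread over treatments of the 10 genes.

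Without the fold threshold, 7 of the 10 genes (these 3, ANKRD37, BNIP3, EGLN3 and VEGFA) were higher at 96 h under all 3 treatments in HCT116, beside 23.3% of all genes. Both ICG-001 readings of EGLN3 were under the limit, so their order is one of background readings, and 6 genes are left without it. In PANC1 BNIP3, NDRG1 and VEGFA were, 3 of 8 genes beside 18.6% of all genes, and 0 of 8 passed 1.5-fold under all 3 treatments, beside 0.0625%. NDRG1 in PANC1 was 1.59-fold higher with DMSO, 1.29-fold with ICG-001 and 1.05-fold with C646. HIF1A was lower at 96 h in each case, where DMSO, ICG-001 and C646 gave log2 ratios of -0.04, -0.42 and -0.20 in HCT116 and of -0.19, -0.51 and -0.11 in PANC1.

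**Figure D3:**
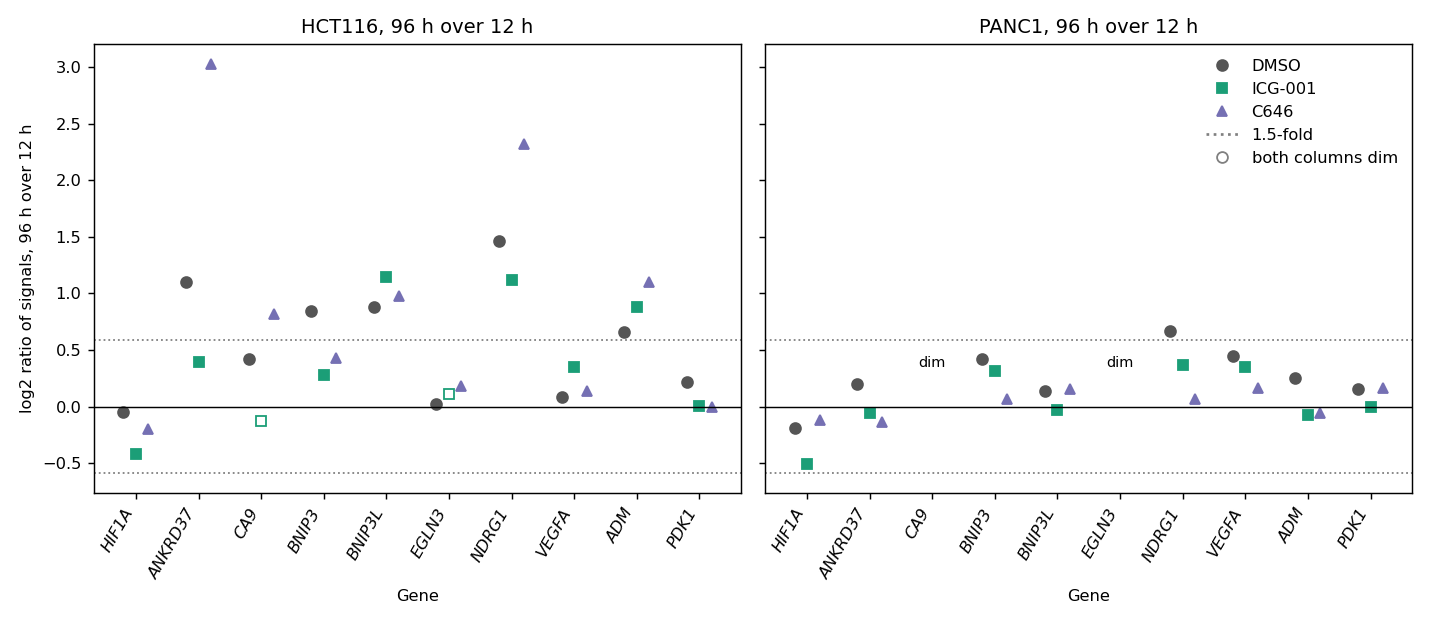
Log2 ratio of the 96 h to the 12 h signal for each of the 10 genes within DMSO (circles), ICG-001 (squares) and C646 (triangles), HCT116 on the left and PANC1 on the right; dotted lines mark 1.5-fold and open points have both columns at or under the limit, and "dim" marks genes at or under it in all 6 columns. In HCT116 ANKRD37 with C646 stands at 3.02 and NDRG1 at 2.32, and in PANC1 only NDRG1 with DMSO passes the line.

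Other genes of the pathway were read from lists of names. Of 37 further non-glycolytic hypoxia targets, 31 were above the limit in the HCT116 DMSO pair, and 11 were higher by at least 1.5-fold at 96 h and 0 lower, beside the 1.58% of all genes on each side, with a median log2 ratio of 0.32. They were BHLHE40 (1.21), a transcriptional repressor, KDM3A (0.99), a histone demethylase, FAM162A (0.94), P4HA1 (0.87) and PLOD2 (0.65), which hydroxylate collagen, ANGPTL4 (0.82), a lipase inhibitor, INSIG2 (0.80), RRAGD (0.71), DDIT4 (0.64), an inhibitor of mTORC1, TMEM45A (0.61) and HIG2 (0.61). Of 19 glycolytic genes 5 were higher and 0 lower, with a median of 0.42: ALDOC (1.46), SLC2A3 (0.97), ENO2 (0.79), HK2 (0.76) and PFKFB4 (0.60). The same 1.58% applies to these and to the machinery genes. Of 14 machinery genes above the limit, EPAS1, the HIF-2 subunit, alone passed 1.5-fold (0.65), and the median was -0.02. The medians of the 10 genes, the other targets and the glycolytic genes thus lay on the same side in this pair.

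In the PANC1 DMSO pair 3 of 29 other targets were higher, DDIT4 (1.28), STC2 (1.12) and ANGPTL4 (1.05), and 0 lower, beside 0.986% and 0.335% of all genes, with a median of 0.18. Among the glycolytic genes ALDOC (1.43) and PFKFB4 (1.14) were higher and PKM2 (-0.78) was lower, with a median of 0.10. None of the 14 machinery genes passed 1.5-fold.

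With ICG-001 in HCT116, 6 of 29 other targets were lower and 3 higher at 12 h, and 10 of 31 lower and 2 higher at 96 h, with medians of -0.15 and -0.40. For these and the glycolytic counts below, the shares of all genes were 4.22% lower and 4.89% higher at 12 h and 5.18% lower and 5.2% higher at 96 h. At both times FAM162A (-0.68 and -1.70), RRAGD (-0.88 and -1.45), KDM3A (-0.72 and -1.44), ZNF395 (-1.05 and -0.71), P4HA1 (-0.67 and -0.68) and PLOD2 (-0.61 and -0.68) were lower. STC2 (1.24 and 1.66), a secreted factor like VEGFA, was higher at both times. The glycolytic genes had 9 of 19 lower at 12 h and 12 of 19 at 96 h, with 1 higher at each time, SLC2A1 (0.80 and 0.74), and medians of -0.51 and -0.79. GPI (-1.02 and -1.67), ALDOC (-0.65 and -1.64), PGAM1 (-0.97 and -1.15), PKM2 (-0.98 and -0.99), TPI1 (-0.94 and -0.96), ENO2 (-1.26 and -0.79), PFKFB4 (-0.64 and -0.79) and ALDOA (-0.74 and -0.73) were lower at both.

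Of the HIF machinery in HCT116, EGLN1, the main prolyl hydroxylase, was lower with ICG-001 at 12 h (-0.83) and 96 h (-1.31), and so was CITED2 (-0.64 and -0.91). CITED2 was also lower with C646 (-0.71 and -0.59). VHL was higher with ICG-001, by log2 ratios of 0.74 and 0.56 in HCT116, and its PANC1 values were 0.52 and 0.69. In HCT116 with ICG-001, 3 of 14 machinery genes were lower and 1 higher by at least 1.5-fold at 12 h, and 2 lower and 0 higher at 96 h, against all-gene shares of 4.22% and 4.89% at 12 h and 5.18% and 5.2% at 96 h. The machinery medians stayed between -0.15 and -0.01 in the ICG-001 comparisons of HCT116. With C646 in HCT116, ZNF395 (-0.71 and -0.66), PKM2 (-0.71 and -0.90) and the glucose transporter SLC2A3 (-1.45 and -0.66) were lower at both times, and the medians of the other targets were -0.06 and -0.01, with 1 of 29 lower and 0 higher at 12 h (all genes, 1.55% and 2.63%) and 1 of 31 lower and 2 higher at 96 h (all genes, 1.24% and 1.92%).

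In PANC1 with ICG-001, 3 of 30 other targets were higher and 0 lower at 12 h, and 3 of 33 higher and 5 lower at 96 h, with medians of 0.02 and -0.03, beside shares of all genes of 2.2% higher and 0.34% lower at 12 h and 3.89% higher and 3.6% lower at 96 h. DDIT4 (1.64 and 1.11) and STC2 (1.25 and 1.24) were higher and the glycolytic PKM2 (-0.65 and -0.80) was lower at both times. The glycolytic median was -0.06 at 12 h and -0.41 at 96 h, with 8 of 19 genes lower and 0 higher at 96 h, while the median of the 8 non-glycolytic genes was -0.06. Of the machinery, 2 of 14 genes were higher with ICG-001 at 96 h, VHL among them. With C646 in PANC1 the transferrin receptor TFRC (-0.62 and -0.61) was lower at both times.

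**Figure D4:**
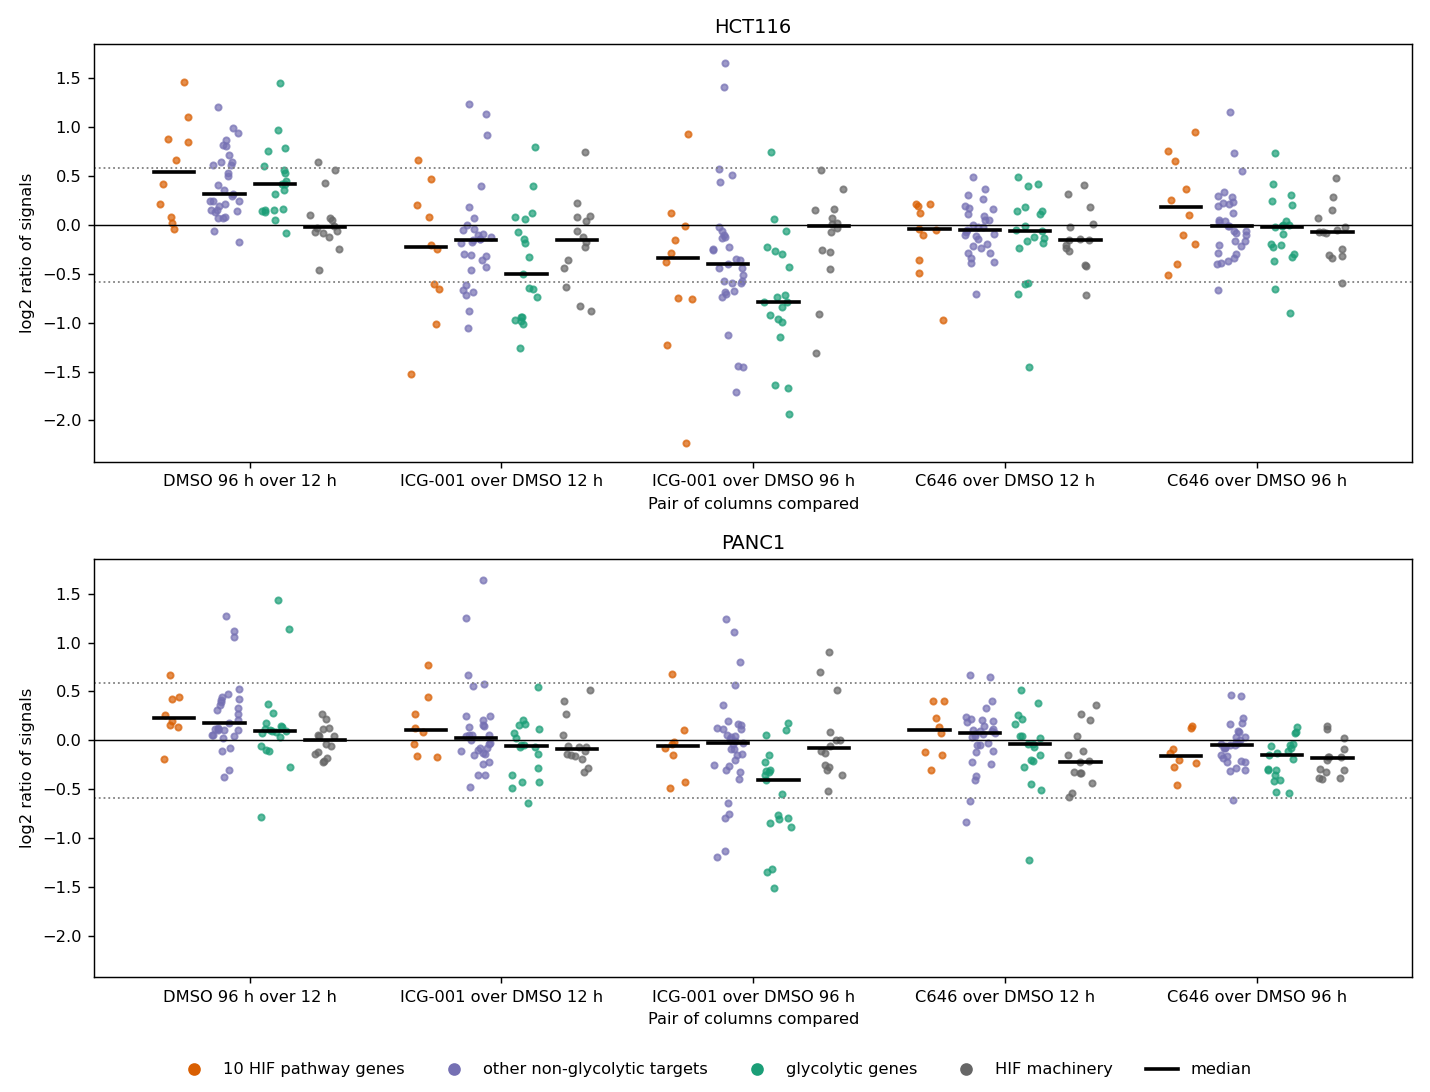
Log2 ratios of single genes (points) and their medians (bars) for the HIF pathway genes, the other non-glycolytic targets, the glycolytic genes and the HIF machinery in 5 pairs of columns, HCT116 above and PANC1 below; genes at or under the limit in both columns are left out, and dotted lines mark 1.5-fold. The median of the 10 genes in HCT116 was 0.54 in the DMSO pair and -0.34 with ICG-001 at 96 h, where the glycolytic median was -0.79.

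The 10 genes did not vary alike. Each was set against the mean log2 signal of the 8 of them measured in both lines, over 12 columns centred within each line. Pearson's r was 0.92 for ADM, 0.90 for ANKRD37, 0.89 for BNIP3L, 0.85 for NDRG1 and 0.80 for BNIP3, all of which are part of that mean, and 0.83 for CA9 and 0.67 for EGLN3, which are not. CA9 was above the limit in 4 and EGLN3 in 3 of the 12 columns and neither in PANC1, so these r rest largely on background readings. It was 0.13 for PDK1, -0.05 for VEGFA and -0.41 for HIF1A. Outside the lists, the genes most like the mean among 1010 candidates were KLHL24 (0.94), SLC29A4 (0.86), a UniGene cluster with no gene symbol (0.86), MXD4 (0.85) and RIMS3 (0.83). KLHL24, for one, had HCT116 signals of 464 and 1210 under DMSO, 326 and 549 under ICG-001, and 306 and 1079 under C646. These r values describe 12 columns that share their normalization within a line, and carry no test.

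Across lines, signals are only roughly comparable, since normalization appears to have been done for each line on its own. NDRG1 with DMSO was 13.4-fold higher in HCT116 than in PANC1 at 12 h and 23.2-fold higher at 96 h, and 13.5-fold and 22.7-fold higher when all 12 columns were quantile normalized together. ANKRD37 was 3.98-fold and 7.43-fold higher in HCT116 (4.18-fold and 7.72-fold after joint normalization), and BNIP3L 2.10-fold and 3.51-fold higher (2.22-fold and 3.75-fold). ADM was the reverse, 1.82-fold and 1.38-fold higher in PANC1 (1.94-fold and 1.55-fold). HIF1A was 1.14-fold and 1.26-fold higher in HCT116, and these were 1.19-fold and 1.32-fold after joint normalization. BNIP3 was 1.11-fold higher in PANC1 at 12 h (1.05-fold after joint normalization), and at 96 h the order was the other way, with 4677 in HCT116 against 3883 in PANC1 (1.23-fold higher in HCT116 after joint normalization).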

How the data were processed

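Signal intensity was measured on Illumina HumanHT-12 v4 arrays, and the deposited table holds 1 linear intensity per gene name and column. According to the methods, the authors quantile normalized the intensity values in GenomeStudio, left the background in, and averaged replicate arrays, which the methods call independent biological replicates. The GenomeStudio version, the number of probes behind a gene name and the annotation build are not given in the sources used here. All 12 columns were matched to their labels.

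Ratios are differences of log2 values. Each column's detection limit lies 2.33 SD, measured on the lower flank, over the peak of its log2 distribution. A gene was tested if either column exceeded the limit, and called at 1.5-fold. If 1 column was under it, the bound is the brighter signal divided by the limit. Without replicates no test was run.

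The 10 genes, the lists and the alternatives were chosen with earlier results of these data known. Listed genes were named when they passed 1.5-fold between the DMSO columns or with 1 drug at both times of a line. Not every gene that the rule names is reported here. VHL is outside that rule and was chosen after its values were seen. The 5 most similar genes had the highest Pearson r with the mean of the genes above the limit in both lines, among genes with an SD of at least 0.3 in each line.

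Alternatives were folds of 1.2 and 2, a limit at 5 SD, no filter, normexp background correction (offset 16), centring and joint quantile normalization. Promoter windows came from the RefSeq table (GRCh38.p14). Python 3.11.15, numpy 2.4.6, pandas 2.3.3, scipy 1.17.1, matplotlib 3.10.9, R 4.3.3 and limma 3.58.1 were used, and the procedure was tested on simulated data.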

Additional observations from a re-analysis of the deposited data

How the results depend on the processing

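Centring the log2 ratios and joint quantile normalization of the 12 columns moved no median of the 10 genes by more than the SD of genes under the limit (0.06 to 0.07 log2) and no count by more than 1.5 times, and no gene past 1.5-fold reversed under any alternative that was run. With a fold of 1.2, the genes past the threshold were 6 instead of 5 in the HCT116 DMSO pair, 6 and 7 instead of 5 for ICG-001 in HCT116 at 12 and 96 h, 3 instead of 1 in the PANC1 DMSO pair, 3 instead of 1 for C646 at 12 h and 6 instead of 3 at 96 h in HCT116, and in PANC1 3 instead of 1 for ICG-001 at each time, 3 instead of 0 for C646 at 12 h and 2 instead of 0 at 96 h. With a fold of 2, they were 2 instead of 5 in the HCT116 DMSO pair and for ICG-001 at 12 and at 96 h, and 0 in the PANC1 DMSO pair, for C646 in HCT116 at both times and for ICG-001 in PANC1 at both times. These counts pool both directions, and the shares of all genes at folds of 1.2 and 2 are not given. They therefore show only how the calls depend on the threshold. With the limit at 5 SD, which tests fewer genes, the median log2 ratios in HCT116 were 0.84 in the DMSO pair, -0.60 and -0.56 for ICG-001 at 12 and 96 h, 0.31 for C646 at 96 h, and -0.52 and -0.83 for ICG-001 over C646, and in PANC1 0.14 for ICG-001 over C646 at 12 h. With no filter, the PANC1 medians at 12 h were 0.021 for ICG-001 over DMSO and -0.025, from 0.062, for ICG-001 over C646, because CA9 and EGLN3 entered.

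After normexp correction, which widens the ratios of dim genes, the medians were 0.78 and 0.35 in the HCT116 and PANC1 DMSO pairs, -0.64 and -0.44 for ICG-001 at 12 and 96 h and 0.40 for C646 at 96 h in HCT116, 0.22 for ICG-001 in PANC1 at 12 h, and -0.53 and -0.69 for ICG-001 over C646 in HCT116. The counts past 1.5-fold were then 7 instead of 5 in the HCT116 DMSO pair, 2 in the PANC1 DMSO pair, 8 for ICG-001 at 12 h, 2 for C646 at 12 h and 5 for C646 at 96 h in HCT116, and in PANC1 3 for ICG-001 at 96 h, 2 for C646 at 12 h and 1 for C646 at 96 h. Both directions are pooled in these counts, and the shares of all genes after normexp correction are not given.

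No paired analysis was possible because each group has 1 column of averaged arrays, and no array was left out for the same reason. CA9, EGLN3, PDK1 and VEGFA lie near background in most columns, so their measured ratios are imprecise and the background left in the signals narrows them.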
